A study of Homo sapiens with 4 samples.

Results

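The NFASC and CNTN2 locus on human chromosome 1 was examined in SMC1 ChIA-PET maps of Kelly neuroblastoma cells. The members are all anchor pairs with at least 1 anchor midpoint in chr1:204750000-205250000 (hg19), which gave 1832 of the 720049 pairs listed in the series. Of these, 412 joined 2 anchors of chromosome 1 and 1420 joined chromosome 1 to another chromosome. Within this window NFASC occupies 204797782-204991950 and CNTN2 occupies 205012340-205047144, both read in the direction of rising coordinates and separated by 20.4 kb. The window was proposed because of its strongest pair, so the members were chosen by paired-end tag (PET) counts of these same tables, and the level of that pair is given as a description only.

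Kelly is an established neuroblastoma line. The cells used here had become resistant to TAE684, a drug against the kinase ALK, and were kept in 1 µM of it. Every group therefore carried the resistance and the drug. One group received short hairpin RNA against BORIS (shBORIS), a paralog of the insulator protein CTCF, and the other control hairpin RNA (shLUC). Each had 24 h of infection, 48 h of puromycin selection and 2 libraries. The titles number the libraries of a group 1 and 2, read here as replicates. Whether the numbers stand for separate hairpins was not established. The question was how contacts held by cohesin differ between the groups. The level of BORIS was not analysed here, and the maps carry no measure of NFASC or CNTN2 transcripts.

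NFASC encodes neurofascin, a membrane protein of the L1 family of immunoglobulin cell adhesion molecules. Its neuronal forms sit at the axon initial segment and the node of Ranvier, where they bind ankyrin G, and a glial form takes part in the paranodal junction. CNTN2 encodes contactin-2, also called TAG-1, an immunoglobulin superfamily protein held to the membrane by a lipid anchor, which guides growing axons and pairs with CNTNAP2 beside the node. Cohesin, of which SMC1 is a subunit, forms chromatin loops that often end where CTCF is bound. In ChIA-PET, fragments held by the precipitated protein are ligated together and the ends of each ligated product are read as a PET, so a PET count on a pair of anchors counts observed ligations between those regions.

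The anchor at 204797112-204798415 covered the NFASC start, from 670 bases before it to 633 after it, and the anchor at 205011906-205012906 covered the CNTN2 start, from 434 before to 566 after. The promoter sequences are shown because both gene starts lay in SMC1 anchors, and the contacts of these anchors are described further on. They run from 250 bases before to 50 after each start and come from RefSeq in build GRCh38.p14, where the first of the NFASC starts is at chr1:204828402-204828701 and CNTN2 has starts 263 bases apart, at chr1:205042962-205043261 and chr1:205042699-205042998, all on the plus strand. Which of the CNTN2 starts is the one given in hg19 was not established. Capitals mark each CCCTC, a short word of the CTCF core, and each GGGCGG, a GC box, on either strand (GAGGG and CCGCCC on the printed one). In the last sequence a GC box and a CCCTC overlap.
NFASC: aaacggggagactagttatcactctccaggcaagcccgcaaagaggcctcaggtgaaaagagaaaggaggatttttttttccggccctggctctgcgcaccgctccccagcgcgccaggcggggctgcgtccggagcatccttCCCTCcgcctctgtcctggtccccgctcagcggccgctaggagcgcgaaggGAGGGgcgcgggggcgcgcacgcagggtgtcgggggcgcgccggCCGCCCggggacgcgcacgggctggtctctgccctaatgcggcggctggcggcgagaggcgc
CNTN2, first listed: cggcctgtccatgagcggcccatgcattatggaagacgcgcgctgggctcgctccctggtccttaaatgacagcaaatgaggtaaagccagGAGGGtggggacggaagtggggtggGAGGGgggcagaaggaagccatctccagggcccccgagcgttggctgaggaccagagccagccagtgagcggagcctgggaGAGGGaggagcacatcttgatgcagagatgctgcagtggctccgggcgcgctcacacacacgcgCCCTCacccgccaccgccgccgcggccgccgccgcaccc
CNTN2, second listed: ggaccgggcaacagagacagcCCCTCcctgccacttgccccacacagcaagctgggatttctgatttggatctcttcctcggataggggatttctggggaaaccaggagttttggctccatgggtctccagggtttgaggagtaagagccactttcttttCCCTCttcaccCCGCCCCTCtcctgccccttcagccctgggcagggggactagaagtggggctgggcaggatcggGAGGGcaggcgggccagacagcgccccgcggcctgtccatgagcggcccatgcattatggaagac

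The NFASC promoter shown was 70.7% G and C with 35 CpG, and the CNTN2 promoters were 67.7% and 61.7% with 23 and 9, against medians of 58.7% and 14 over 35116 RefSeq promoters of the same length. A second NFASC promoter listed by RefSeq, at chr1:204870612-204870911 and not at the gene's start, was 55.0% G and C with 9 CpG, below both medians, and held CCCTC 4 times and no GC box. CCCTC occurred 2 times in the NFASC promoter shown and 4 times in each of the CNTN2 promoters, and 71.2% of all promoters hold it. The GC box occurred in the NFASC promoter shown and in the second CNTN2 one, and 45.0% of all promoters hold it. TATAAA was found in none of the 4 promoters on either strand, and 11.5% of all promoters hold it. A longer form of the CTCF core, 12 bases with free positions, had 0 matches in each of the 4 promoters, and 2.41% of all promoters hold it. The capitals therefore mark only the short word and not this longer form. These are descriptions of letters and not of binding.

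The window held 27 of 39507 anchors. Of these, 11 overlapped NFASC, 3 overlapped CNTN2, 2 lay between the genes, 3 lay before NFASC and 8 after CNTN2. They were wider than usual, with a median of 1637 bp (676 to 4171) against 1172 bp, and each carried a median of 28 intrachromosomal PETs over both tables, against 9 for all anchors. In RefSeq's order, of another build, the protein-coding genes after CNTN2 are TMEM81, RBBP5, DSTYK, TMCC2 and NUAK2, and the anchors were not assigned to them. Exons and introns of the genes were not analysed here in hg19.

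In the strongest pair, the anchor at 204957786-204961956, in the 3′ part of NFASC, was joined to the one at 205029594-205032492, in the body of CNTN2. The NFASC end was centred 162.1 kb after the gene's start and 32.1 kb before its end, and the CNTN2 end 18.7 kb after the start of a gene of 34.8 kb. Neither end covered a start or an end of either gene. The pair had 45 PETs in shLUC and 52 in shBORIS, with a Bayes probability of 1 in both. Across a span of 71.2 kb, an anchor pair drawn from the genome carried on average 0.439 PETs in shLUC and 0.492 in shBORIS. The count was thus 103 times (exact 95% interval 74.8 to 137) that mean in shLUC and 106 times (79.0 to 139) in shBORIS. Here and below, the mean is over all possible anchor pairs of the span. It makes no allowance for the width or PETs of the anchors, and these ends ranked 52 and 101 among all anchors by PETs. Among all intrachromosomal pairs it ranked 7 in shLUC and 8 in shBORIS, and among the 12091 listed pairs of like span (within 0.1 on a log10 scale) it ranked 1 and 2.

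This contact took a large part of what its ends did. Of the 100 intrachromosomal PETs of the 3′ NFASC anchor in shLUC, 45.0% (exact 95% interval 35.0 to 55.3) went to the CNTN2 body anchor, and of 107 in shBORIS, 48.6% (38.8 to 58.5). From the CNTN2 side it was 62.5% of 72 PETs (50.3 to 73.6) and 56.5% of 92 (45.8 to 66.8). The shares of the 2 tables overlapped at both ends. These and all later intervals express counting error alone: PETs copied by PCR are not independent molecules.

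The strongest pair ended inside the genes, and the anchors at the gene starts had fewer PETs than its ends. The NFASC start anchor had 12 intrachromosomal PETs in shLUC and 11 in shBORIS, and the CNTN2 start anchor had 4 and 9. By summed PETs these anchors ranked 7225 and 14149 among all anchors. Both sums lay above the median of 9 for all anchors. The NFASC start contacted the neighbouring anchor at 204795676-204796894 with 5 and 3 PETs and the mid-gene anchor at 204910144-204911984, 113.3 kb into NFASC, with 5 and 3. The start anchor of NFASC had 0 PETs in shLUC and 1 in shBORIS with anchors of CNTN2. From the CNTN2 start to NFASC there were 0 PETs in shLUC and 7 in shBORIS, on 4 pairs, of which 4 PETs went to the 3′ NFASC anchor. Summed PETs of the CNTN2 start anchor gave a scaled ratio, shBORIS over shLUC after division by each table's intrachromosomal total, of 2.02 (0.563 to 8.96). Fisher's exact test over all anchors gave an adjusted p of 0.977 for it.

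**Figure D1:**
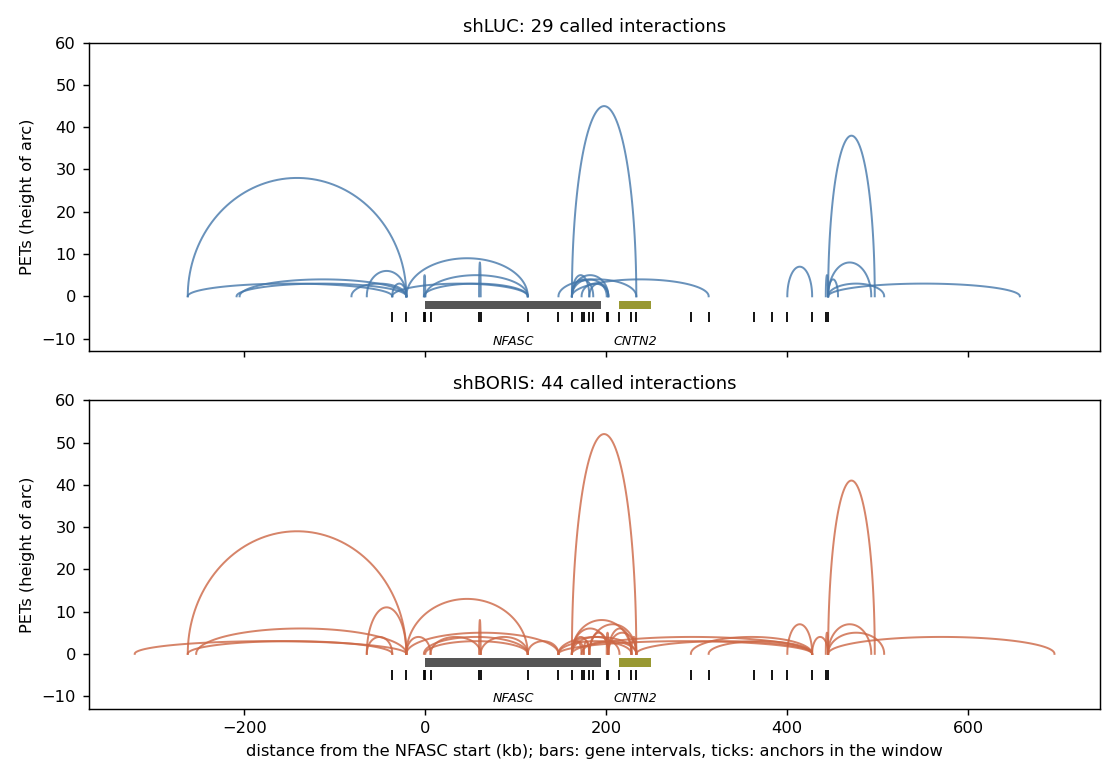
Called interactions of the window in each pooled table, drawn as arcs between anchor midpoints at their distance from the NFASC start (kb), with the PET count as the arc's height. Bars are the gene intervals and ticks the 27 anchors; the NFASC to CNTN2 arc reaches 45 PETs in shLUC and 52 in shBORIS, and most other arcs stay low.

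A further 2 pairs stood out, and both crossed the window's edge. The anchor at 204775386-204778382, 20.9 kb before the NFASC start, was joined to 204534179-204536289 across 241.7 kb with 28 PETs in shLUC and 29 in shBORIS. That is 200 and 193 times the genome mean at this span, above the excess of the NFASC to CNTN2 pair. At the other end of the window, 205241917-205244241 was joined to 205293658-205295581 across 51.5 kb with 38 and 41 PETs, 79.2 and 75.0 times the mean. Together the 3 strongest pairs held 24.9% of the window's intrachromosomal PETs in shLUC and 22.1% in shBORIS.

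The upstream anchor also reached into NFASC. Its contact with the mid-gene anchor spanned 134.2 kb and had 9 PETs in shLUC and 13 in shBORIS, and that with 204732242-204734043, just before the window, had 6 and 11. At 59.5 and 61.3 kb after the NFASC start, the neighbouring anchors 204856782-204857713 and 204858103-204859952 had 8 PETs with each other in both tables. The latter count was close to what so short a span carries, at 2.17 and 1.94 times the mean. After CNTN2, 205196475-205199439 and 205224468-205226323 had 7 PETs with each other in both tables, and 205241917-205244241 had 8 and 7 with 205289848-205291585 outside the window.

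From the 3′ NFASC anchor, weaker contacts ran to anchors on the way to CNTN2. It had 5 PETs in shLUC and 6 in shBORIS with 204999150-205001091, between the genes, and 5 and 4 with 204978363-204979842, near the NFASC end. With 205024885-205026486, the CNTN2 anchor next to the strongest pair's end, it had 2 and 8 PETs, below the call minimum in shLUC. The anchors on the window's edges show where the rule took effect. The first inside had 22 and 18 intrachromosomal PETs and the next outside, at 204732242-204734043, had 35 and 51. At the far edge the last inside had 77 and 84 and the next outside, at 205253338-205254647, had 8 and 3.

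**Figure D2:**
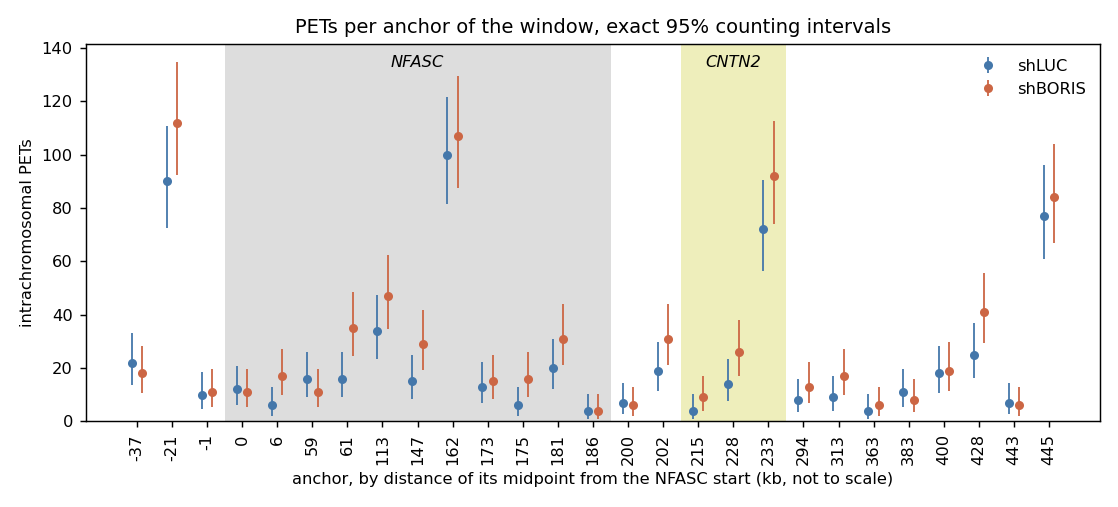
Intrachromosomal PETs of each of the 27 anchors in shLUC and shBORIS, with exact 95% counting intervals, ordered along the chromosome (spacing not to scale) and labelled by distance from the NFASC start in kb. Shading marks anchors that overlap NFASC or CNTN2; the upstream, 3′ NFASC, CNTN2 body and far downstream anchors stand above the rest, and the intervals of the tables overlap at each anchor.

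The 4 busiest anchors took part in 65.5% of the window's intrachromosomal PETs in shLUC and 61.8% in shBORIS. The 3′ NFASC anchor had 100 and 107 PETs and ranked 52 among all anchors by the sum. The upstream anchor had 90 and 112 (rank 57), the CNTN2 body anchor 72 and 92 (rank 101) and the far downstream anchor 77 and 84 (rank 109). Next came the mid-gene anchor with 34 and 47 and the anchor at 205224468-205226323 with 25 and 41. Pairs share these anchors, so they are not independent of each other.

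Fewer PETs crossed the middle of NFASC than its later part. Of PETs spanning under 2 Mb, 19 in shLUC and 32 in shBORIS crossed the gap between the mid-gene anchor and 204944209-204945791, a gap centred 130 kb into the gene. The next gap, up to the 3′ NFASC anchor, was crossed by 29 and 35, so the place of a division is not sharp. Between these gaps, 204944209-204945791 had 0 and 5 PETs with the upstream anchor and 4 and 4 with the CNTN2 body anchor. Across each gap from the 3′ NFASC anchor to the CNTN2 body anchor, 84 to 107 PETs crossed in shLUC and 105 to 130 in shBORIS. After the CNTN2 body anchor the count was 25 and 32. Without the strongest pair's own PETs, the same interior gaps were crossed by 39 to 62 PETs in shLUC and 53 to 78 in shBORIS, still more than the gaps that bound them. Low counts also lay near the far end of the window, with 14 and 24 PETs across the gap before 205240124-205240893 and 21 and 29 across the next. The 3 stretches described here were chosen after these values were seen. Neither of these last gaps was used to divide them. The earlier of these gaps was crossed by fewer PETs in both tables than the gaps used, of 19 and 32 and of 25 and 32. The later was so in shBORIS only, since its 21 in shLUC lay above 19. The first stretch held 8 anchors over 151.6 kb from before NFASC to its middle. The second held 11 over 88.3 kb, from late NFASC to the CNTN2 body, and the third 8 over 153.7 kb after it.

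**Figure D3:**
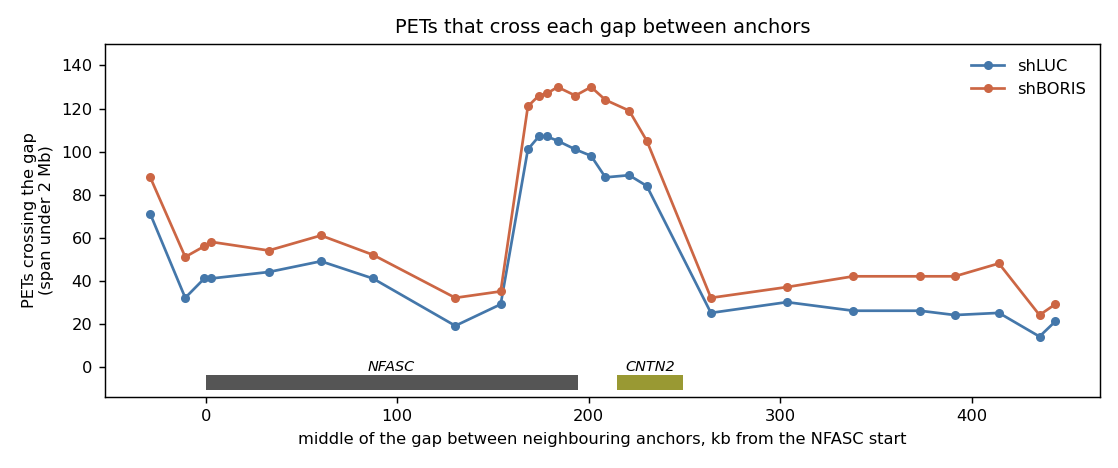
PETs spanning under 2 Mb that cross the gap between each 2 neighbouring anchors, against the middle of the gap in kb from the NFASC start, for shLUC and shBORIS. Both tables rise from 29 and 35 PETs before the 3′ NFASC anchor to 101 and 121 after it and drop to 25 and 32 after the CNTN2 body anchor.

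Between the first and second stretches, contacts were few: 8 PETs in shLUC and 20 in shBORIS over 88 possible pairs, of which 15 were seen. Within the first stretch there were 45 and 53 PETs over 28 possible pairs, and within the second 102 and 142 over 55. Among PETs spanning under 2 Mb, the first stretch had 69 and 88 to anchors upstream of the window. Most of these came from its anchors before NFASC, with 28 and 29 on the upstream anchor's pair with 204534179-204536289. Of pairs joining anchors in NFASC to anchors upstream of the window, 0 were called in either table. The second stretch had 2 and 1 PETs upstream and 5 and 4 downstream of the window at such spans. Over all spans, anchors of CNTN2 alone had 14 and 7 PETs upstream of the window, and the anchors before NFASC had 83 and 100. Anchors of NFASC in the second stretch had 59 PETs in shLUC and 86 in shBORIS with CNTN2, and those in the first had 2 and 3. The strongest pair, which the choice of the locus used, supplied 45 and 52 of the former, and 14 and 34 remained without it. The third stretch, after CNTN2, had 25 and 35 PETs within itself, 11 and 17 with the second and, at spans under 2 Mb, 68 and 73 downstream of the window. Of the PETs downstream, 38 and 41 lay on the far downstream anchor's pair with 205293658-205295581. Most of the others were also of that anchor. Spans differ between these classes, and no test was made of the division.

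**Figure D4:**
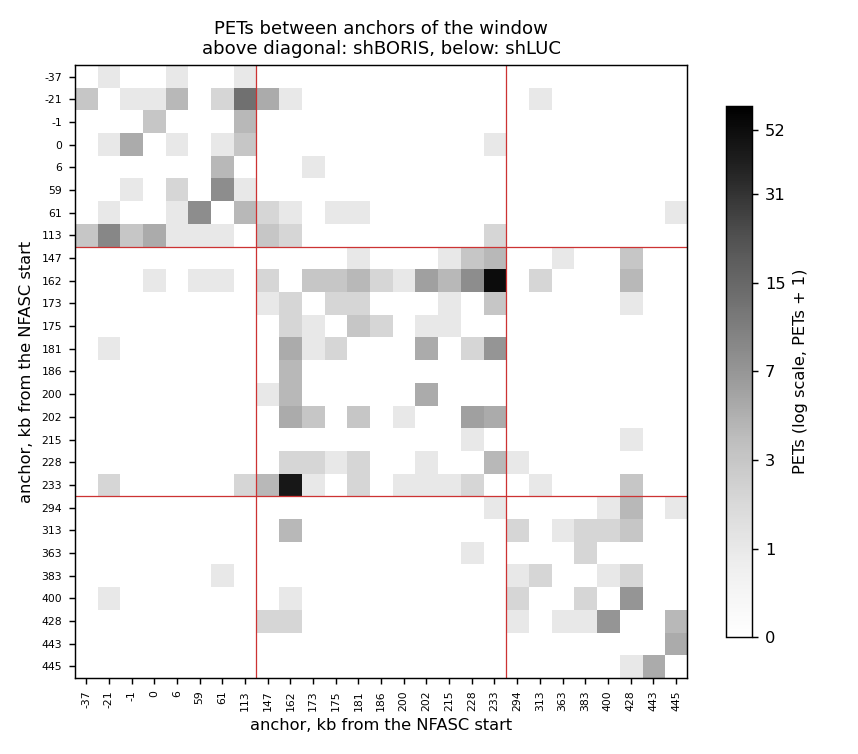
PETs between the 27 anchors of the window as shades on a log scale of PETs + 1, with shBORIS above the diagonal and shLUC below it; axis labels give each anchor's distance from the NFASC start in kb. Red lines bound the 3 stretches; the darkest squares, at 162 and 233 kb, are the NFASC to CNTN2 pair, and the field between the first stretch and the last holds 2 PETs in each table.

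The window's PETs covered a wide range of spans. Of the intrachromosomal PETs, 49 in shLUC and 55 in shBORIS spanned under 20 kb, 169 and 231 spanned 20 to 100 kb, 116 and 145 spanned 100 to 500 kb, and 6 and 6 spanned 500 kb to 2 Mb. Beyond 2 Mb there were 106 and 116 PETs on 220 pairs, with at most 2 on a pair and 0 called.

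**Figure D5:**
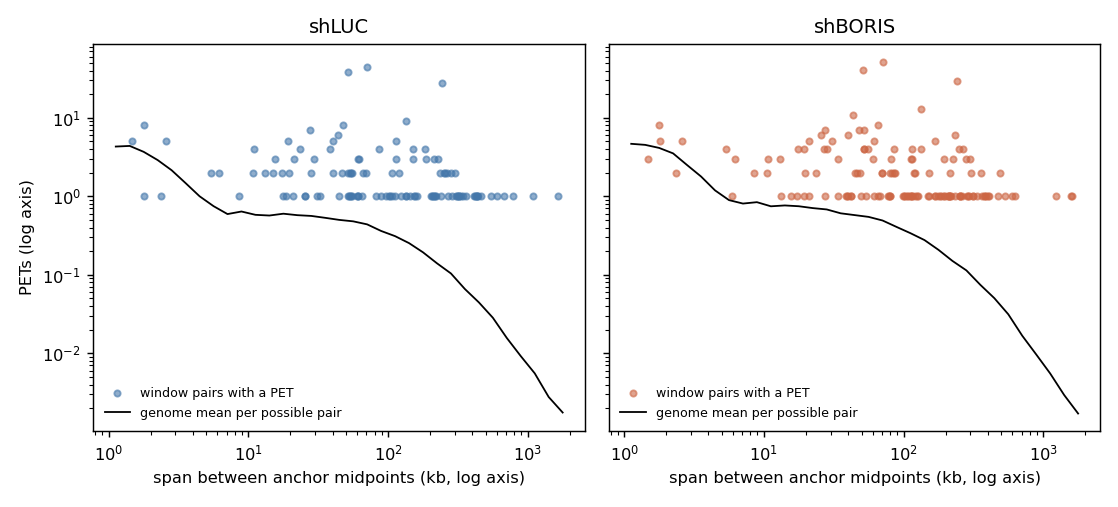
PETs of each window pair spanning under 2 Mb against the span between its anchor midpoints (both axes logarithmic), for shLUC and shBORIS, with the genome mean per possible pair as a line; pairs without a PET are not drawn, so the points lie above the mean at long spans by construction. The 3 points far above the rest are the pairs with 45, 38 and 28 PETs in shLUC and 52, 41 and 29 in shBORIS.

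The comparison of shBORIS with shLUC rests on 1 pooled table per group, of 434975 PETs in shLUC and 449979 in shBORIS. No difference could therefore be set against the spread between libraries, and each test below compares the 2 pools and not the conditions. Intrachromosomal PETs numbered 146140 and 163041 in all. The window had 446 intrachromosomal PETs in shLUC and 553 in shBORIS, which scaled to a ratio of 1.11 (0.979 to 1.26). Over 3959 windows of 500 kb its adjusted p was 0.620 by Fisher's exact test. By that test 0.177% of windows were higher in shBORIS and 0.177% lower. The unadjusted p of this window was 0.0989, and 9.75% of windows had one under 0.05. Of 26 other windows with a PET sum within 20% of this one, 9 had a larger ratio and the median was 1.07.

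The strongest pair, scaled in the same way, had a ratio of 1.04 with an interval from 0.682 to 1.58. Its adjusted p was 1 by Fisher's exact test. The interval leaves room for a change of up to 1.58-fold upward or to 0.682 of the control. Of the 412 pairs, 11 had the 10 summed PETs needed for the test and 0 passed it, where 0.0506% of 3951 tested pairs were higher in shBORIS and 0% lower. None of the 11 had an unadjusted p under 0.05, which 5.69% of all tested pairs had. The upstream pair and the far downstream pair had ratios of 0.928 (0.533 to 1.62) and 0.967 (0.607 to 1.55). The largest gains in PETs among the 11, by 7, 6, 5 and 4, were those of the strongest pair, of the 3′ NFASC anchor with 205024885-205026486, and of the upstream anchor with 204732242-204734043 and with the mid-gene anchor. The largest ratio of these 4 was 3.59 (0.716 to 34.7), for the pair of 2 and 8 PETs (Fisher's exact test, adjusted p = 0.912). A single tested pair had fewer PETs in shBORIS, that of 8 and 7 at the far downstream anchor.

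Summed over all 15 pairs between NFASC and CNTN2, PETs numbered 61 in shLUC and 89 in shBORIS, a scaled ratio of 1.31 (0.934 to 1.84). Without the strongest pair, the other 14 had 16 and 37, a ratio of 2.07 (1.13 to 3.99). These ratios are descriptions of the pools. The strongest pair was used to choose the locus, and it was set apart from the other 14 with its count known. Pairs of this class share anchors, so their PETs are not independent. Contacts of the anchors between the genes with CNTN2 numbered 3 and 11 PETs (ratio 3.29, 0.868 to 18.4), while those with NFASC numbered 16 and 13 (0.728, 0.322 to 1.62). Within NFASC there were 42 and 55 PETs (1.17, 0.771 to 1.798). With both ends in the window the PETs numbered 193 and 269, a ratio of 1.25 (1.04 to 1.51). The same count over 2503 windows gave an adjusted p of 0.441 by Fisher's exact test, with 0.599% of windows passing. Unadjusted, p was 0.0196, and 8.87% of those windows had one under 0.05. PETs with 1 end in the window numbered 253 and 284 (ratio 1.01, 0.846 to 1.20). By span, the window's ratio was 1.01 (0.672 to 1.51) under 20 kb, where all PETs of the series gave 1.08. From 20 to 100 kb, the class of the strongest pair, it was 1.23 (1.00 to 1.503) beside 1.03, and from 100 to 500 kb it was 1.12 (0.872 to 1.44) beside 0.981.

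An interaction was called at 3 or more PETs and a Bayes probability, as deposited, of at least 0.9. In shLUC 29 of the 412 pairs were called, 7.04% (exact 95% interval 4.76 to 9.95), against 7.62% of all 147452 intrachromosomal pairs. In shBORIS 44 were called, 10.7% (7.87 to 14.1), against 8.89%. Of the 56 called in either table, 17 were called in both (30.4%, 18.8 to 44.1), 12 in shLUC alone (21.4%, 11.6 to 34.4) and 27 in shBORIS alone (48.2%, 34.7 to 62.0). The shares over all calls were 34.8%, 27.4% and 37.8%, inside those intervals. Over all listed intrachromosomal pairs, 4.27% were called in both tables, 3.35% in shLUC alone and 4.63% in shBORIS alone. Calls on 1 side alone were thin, with a median of 3.5 PETs and at most 5 in shLUC and a median of 4 and at most 8 in shBORIS. Of them, 8 of 12 and 19 of 27 had at least 1 PET in the other table.

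By class, of the 15 listed pairs between NFASC and CNTN2, 2 were called in shLUC and 7 in shBORIS, and both of the former were among the latter. They were the strongest pair and that of 204944209-204945791 with the CNTN2 body anchor, which had 4 PETs in each table. The second stretch had 8 calls in shLUC and 17 in shBORIS among its 37 listed pairs, 5 of them in both. The first had 7 and 7 among 20 pairs, 4 of them in both. At the CNTN2 body anchor the number of called partners was 2 and 7 of 34 listed, and at the 3′ NFASC anchor it was 6 and 8 of 51. Over all intrachromosomal pairs, a set that also holds far longer spans than the stretches do, 7.62% were called in shLUC and 8.89% in shBORIS. No test was made of these counts.

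Of the 27 anchors, 26 had enough intrachromosomal PETs to be tested. By Fisher's exact test 0 passed, the smallest adjusted p being 0.652, where 0.0153% of 19623 were higher in shBORIS and 0.0051% lower. An unadjusted p under 0.05 was found for 1 of them, against 6.43% of all, the anchor at 204858103-204859952 in NFASC with 16 and 35 PETs (ratio 1.96, 1.06 to 3.79). Ratios of the tested anchors ran from 0.616 to 2.54. The 3′ NFASC anchor had a ratio of 0.959 (0.723 to 1.27), the CNTN2 body anchor 1.14 (0.832 to 1.58), the upstream anchor 1.12 (0.838 to 1.49) and the NFASC start anchor 0.822 (0.329 to 2.03). Of the 27, 16 had a ratio above 1 and 11 below.

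Interchromosomal PETs, most of them single ligations, were taken as a rough gauge of the anchors' coverage apart from these contacts, a use that was not tested. The window had 680 in shLUC and 750 in shBORIS, a ratio of 1.11 (0.999 to 1.23) scaled to the interchromosomal totals, beside 1.11 for its intrachromosomal PETs. The part of coverage in the intrachromosomal ratio was not tested. By Fisher's exact test on interchromosomal PETs 0 of 25 anchors passed, where 0.014% of 35637 were higher in shBORIS and 0% lower. An unadjusted p under 0.05 was found for 4 of the 25, against 5.56% of all. On 99.3% of the 1420 interchromosomal pairs there was 1 PET, and 10 pairs had 2, with a Bayes probability of at most 0.248. Intrachromosomal PETs made up 39.6% of the window's PETs in shLUC and 42.4% in shBORIS, against 33.6% and 36.2% over the series.

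The 5 pairs elsewhere most like the strongest pair, by distance over log2 PETs + 1 in each table and log10 span, had 38 to 45 PETs in shLUC and 44 to 57 in shBORIS. The nearest joined 113256755-113262423 and 113345455-113348443 on chromosome 1, with 42 and 52 PETs over 87.4 kb. Others lay at 72374654-72377256 and 72449136-72454831 on chromosome 17, with 38 and 52 PETs, and at 31108736-31112335 and 31239035-31241880 on chromosome 20, with 45 and 53. Pairs with 20 or more summed PETs numbered 890 in the series, 4 of them in the window. Their median scaled ratio was 0.986, and 10% lay below 0.598 and 10% above 1.68, a range that holds the strongest pair's 1.04.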

How the data were processed

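SMC1 ChIA-PET of 4 libraries, 2 per group, was analysed from the authors' 2 tables, each read as the pool of its group because both libraries name it in their labels. The submitters' processing notes name cutadapt 1.8, Bowtie and hg19; the program that defined anchors and scored pairs is not given in the sources used here. Per the file headers the main column is a PET count for each pair, and it was used as a raw count. The deposited hypergeometric p-value was not used. The deposited Bayes probability, a fraction from 0 to 1, served for calls. The shBORIS table lacks a header, and its columns were matched to those of the shLUC table by position. Starts were shifted to count from 1.

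Pairs, anchors and windows with at least 10 summed PETs were compared over the whole tables with two-sided Fisher's exact tests and Benjamini-Hochberg adjustment (threshold 0.05). Windows of 500 kb were tiled so that the locus was 1 of them. Means per span counted all possible anchor pairs in bins of 0.1 on a log10 scale. Ratio intervals are exact 95% conditional intervals. Gene intervals in hg19 came with the definition of the locus, and other axonal adhesion genes were not analysed here for want of hg19 positions. The pairs named were the 12 with the most PETs and those of the largest difference; anchors named were the 8 busiest, those at gene starts and those of a named pair. Other pairs and anchors, and the 3 stretches, were chosen after their values were seen. The members and lists were chosen with earlier results of these data known. Scripts ran in Python 3.11.15 with pandas 2.3.3, numpy 2.4.6 and scipy 1.17.1. The test of pairs and the ratio interval were tried on simulated data, and the other steps were not.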

Additional observations from a re-analysis of the deposited data

How the results depend on the processing

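Of 27 alternatives over 10 results, 21 kept their call or lay near the reported value (inside its counting interval or, for counts, within 1.5 times), 6 moved further and 0 reversed. Calls fell to 13 in shLUC, 19 in shBORIS and 10 shared with at least 5 PETs, and to 18 in shLUC and 11 shared with both anchors in the window, as those rules keep fewer pairs. Without the strongest pair the NFASC to CNTN2 ratio was 2.07; the cause was not tested. The window's ratio ran from 1.09 to 1.25 with adjusted p from 0.170 to 0.716 by Fisher's exact test; its interval excluded 1 when scaled to all PETs (1.20, 1.06 to 1.36) and with both ends in the window. The adjusted p for both ends inside was computed over all windows after the data were seen. Scaled to all PETs, the NFASC to CNTN2 ratio was 1.41 (1.01 to 1.99). With at least 5 summed PETs 42 of the pairs were tested and with at least 20 there were 4; 0 passed in each. No paired analysis was possible because a group's 2 libraries were deposited as a single pooled table, which also kept libraries from being left out in turn. Counting error limits single pairs: at 2 and 8 PETs the interval ran from 0.716 to 34.7.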

Other observations

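Outside the NFASC to CNTN2 stretch, the anchor at 205224468-205226323, after CNTN2, had 1 called partner in shLUC and 7 in shBORIS, with 25 and 41 intrachromosomal PETs and 42 and 39 interchromosomal ones. It had 29 listed partners on chromosome 1, and over all intrachromosomal pairs 7.62% were called in shLUC and 8.89% in shBORIS. This anchor was chosen after its values were seen. Its called partners in shBORIS included the 3′ NFASC anchor, with 2 PETs in shLUC and 4 in shBORIS, and the CNTN2 body anchor, with 0 and 3. Fisher's exact test over all anchors gave it an adjusted p of 0.908.

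Interchromosomal PETs of single anchors moved apart from their intrachromosomal ones in places. At the mid-gene NFASC anchor, 204910144-204911984, they numbered 36 in shLUC and 71 in shBORIS (ratio 1.99, 1.31 to 3.05), with 34 and 47 intrachromosomal PETs. Between the genes, 204999150-205001091 had 5 and 20 (4.03, 1.47 to 13.7), and in NFASC 204856782-204857713 had 12 and 1 (0.0839, 0.00196 to 0.567). At 205110344-205111685, after CNTN2, they numbered 5 and 14. These are the 4 anchors with an unadjusted p under 0.05, and the smallest adjusted p by Fisher's exact test was 0.626. These anchors were chosen after their values were seen.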
